A study of Mus musculus with 3 samples.

Results

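The 31 genes described here encode enzymes of cholesterol and fatty acid synthesis and the proteins that control them through the sterol regulatory element binding proteins (SREBPs). They were taken as a fixed list of gene names out of 21887 protein-coding genes, and all 31 were found in the annotation. In this pathway acetyl-CoA is built into mevalonate, farnesyl diphosphate, squalene and lanosterol. Lanosterol is trimmed step by step into cholesterol, while a parallel route turns acetyl-CoA into fatty acids that are then desaturated and elongated. When sterols are scarce, the escort protein SCAP carries SREBPs from the endoplasmic reticulum to the Golgi, where they are cut into active transcription factors. The INSIG proteins hold SCAP back when sterols are plentiful. Oligodendrocytes make large amounts of cholesterol and fatty acids, since both are main constituents of myelin.

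The measurements were ATAC-seq peak tables, which list the places where a transposase could enter chromatin. There were 3 groups with 1 library of 50000 cells each. All were oligodendrocyte lineage cells purified from the cortex of C57BL/6 mice at postnatal days 4 to 7 by panning on anti-GalC and then anti-O4. Seh1cKO day 1 cells were Seh1 conditional knockout cells kept for 1 day in 60 nM triiodothyronine (T3) with PDGF-AA, bFGF and NT3 withdrawn. Control day 1 cells were wild type under the same conditions, and control progenitors were wild type cells before T3. The labels give neither the Cre driver nor the deleted part of the gene, and the number of animals behind a library is not given. The gene-end peak of the targeted gene, Seh1l, had a pileup of 47 fragments in Seh1cKO day 1 cells, 70 in control day 1 cells and 77 in progenitors. This checks nothing about the label, because open chromatin at a gene end need not lie in the deleted part.

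The Seh1cKO day 1 library held 10845533 fragments and 46113 peaks, against 18260883 fragments and 118441 peaks in the control day 1 library and 23403600 fragments and 108788 peaks in the progenitor library. The Seh1cKO day 1 library thus had 59.4% of the fragments and 38.9% of the peaks of control day 1. Genotype and depth cannot be told apart wherever presence of a peak is compared. The lowest pileup called was 6 fragments in Seh1cKO day 1 cells, 8 in control day 1 cells and 9 in progenitors, so a site with no call can still be open below that level. Gene-end peaks were present at 4 of 5 oligodendrocyte lineage markers in each of the 3 libraries, with Cspg4 lacking one in all. They were also present at 3 of 5 neuron markers in each day 1 library and 5 in progenitors, and at 4 of 5 astrocyte markers in every library. They were present at 1 of 5 microglia and 1 of 5 endothelial markers in Seh1cKO day 1 cells, against 2 of each in control day 1 cells and 2 of each in progenitors. Summed over a list, the gene-end levels were 12.8, 13.6 and 16.6 fragments per 1000000 for the oligodendrocyte lineage in Seh1cKO day 1 cells, control day 1 cells and progenitors. In the same order they were 8.30, 7.83 and 8.67 for the neuron markers, and between 1.01 and 6.68 for the other lists. The part of other cell types in the values below was not tested. With 1 library in each group no difference here has a replicate check. Intervals are 95% and cover counting error only, and fragments without molecular identifiers, kept with their duplicates, are not independent molecules.

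The promoters of 5 of the genes are shown because their peaks carry the main values below. Hmgcs1 had the highest pileup of all 31 genes and was lower in Seh1cKO day 1 cells, and Dhcr7 was higher in Seh1cKO day 1 cells. Lss, Tm7sf2 and Insig1 had the largest ratios of control day 1 cells over progenitors. Each run of 300 bases is from RefSeq (GRCm38.p6), read 5′ to 3′ on the strand of the gene from 250 bases before the listed start to 50 after it. Capitals mark CCAAT, the box bound by NF-Y, on either strand, and in Hmgcs1 also the single match to the sterol regulatory element TCACNCCAC.
Hmgcs1, chr13:119690101-119690400, plus strand: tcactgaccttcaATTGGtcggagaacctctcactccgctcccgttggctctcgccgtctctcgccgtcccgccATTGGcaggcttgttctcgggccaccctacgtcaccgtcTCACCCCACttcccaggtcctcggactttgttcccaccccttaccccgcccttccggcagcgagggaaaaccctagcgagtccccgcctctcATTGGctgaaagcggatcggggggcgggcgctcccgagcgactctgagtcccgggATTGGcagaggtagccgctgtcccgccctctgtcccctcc
Lss, chr10:76531355-76531654, plus strand: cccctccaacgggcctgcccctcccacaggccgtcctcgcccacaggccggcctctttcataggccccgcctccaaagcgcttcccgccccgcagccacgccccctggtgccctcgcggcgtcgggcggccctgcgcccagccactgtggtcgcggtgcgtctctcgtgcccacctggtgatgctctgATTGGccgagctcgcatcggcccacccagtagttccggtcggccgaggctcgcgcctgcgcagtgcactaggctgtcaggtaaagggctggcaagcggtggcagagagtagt
Tm7sf2, chr19:6067801-6068100, minus strand: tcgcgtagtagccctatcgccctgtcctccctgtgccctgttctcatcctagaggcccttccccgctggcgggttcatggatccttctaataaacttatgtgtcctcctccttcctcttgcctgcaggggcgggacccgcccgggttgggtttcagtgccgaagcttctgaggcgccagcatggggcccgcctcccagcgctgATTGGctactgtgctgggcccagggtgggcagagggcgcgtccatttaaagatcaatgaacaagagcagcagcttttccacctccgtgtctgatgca
Insig1, chr5:28071162-28071461, plus strand: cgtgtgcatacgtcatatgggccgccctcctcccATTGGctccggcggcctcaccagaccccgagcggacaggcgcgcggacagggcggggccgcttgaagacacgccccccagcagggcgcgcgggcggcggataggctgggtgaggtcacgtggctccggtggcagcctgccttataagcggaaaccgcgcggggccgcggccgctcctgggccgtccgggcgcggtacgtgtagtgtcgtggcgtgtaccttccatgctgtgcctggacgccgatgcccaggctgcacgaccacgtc
Dhcr7, chr7:143822917-143823216, plus strand: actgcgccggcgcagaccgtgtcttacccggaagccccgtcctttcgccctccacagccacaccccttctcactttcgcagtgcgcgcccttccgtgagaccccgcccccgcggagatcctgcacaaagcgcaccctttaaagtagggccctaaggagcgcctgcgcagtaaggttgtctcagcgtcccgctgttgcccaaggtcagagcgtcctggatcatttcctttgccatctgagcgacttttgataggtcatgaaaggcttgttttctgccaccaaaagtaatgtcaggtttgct

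The promoter table held 33 entries for 25 of the 31 genes, and Fdps, Fdft1, Sqle, Fads1, Scd1 and Scd2 had no entry. A CCAAT box was found in the promoters of 21 of these 25 genes, against 42.3% of the 17492 genes in the table. A GC box, GGGCGG, was found in 20 of 25 genes, against 49.2% of all, and an E-box, CACGTG, in 6 of 25, against 8.91%. The sterol element matched in 1 of 25 genes, Hmgcs1, against 1.41% of all. Both strands were searched, and each motif was counted on its own, whether or not it overlapped a match of another. A match is a run of letters and not a measured binding site. The member promoters had a median GC content of 62.3%, against 56.3% over all 21263 promoters. In Hmgcs1 the sterol element was centred 133 bases before the start, with CCAAT boxes centred 174 bases before it and 43 bases before it among 4 in all. The summit of the Hmgcs1 peak lay 51 bases before the start in Seh1cKO day 1 cells, 145 before it in control day 1 cells and 66 before it in progenitors. Promoters of the 25 genes were overlapped by a peak in 28 of 33 entries in Seh1cKO day 1 cells, 28 of 33 in control day 1 cells and 29 of 33 in progenitors, against 51.4%, 54.9% and 54.0% of all promoters in the same libraries.

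A gene-end peak is a called peak within 1000 bp of either annotated end of a gene, and its level is the highest summit pileup there, in fragments, scaled to 1000000 fragments in the library (FPM, fragments per 1000000). Nearly all the genes had a gene-end peak. It was found for 28 of 31 in Seh1cKO day 1 cells, 29 of 31 in control day 1 cells and 30 of 31 in progenitors, against 56.2%, 63.2% and 62.4% of all protein-coding genes in the same libraries. Peaks in all 3 libraries were found for 28 of 31 genes, against 54.1% of all genes. Of the 29 genes with a peak in control day 1 cells 1 had none in Seh1cKO day 1 cells, Fdft1, against 12.9% of all genes. The median level of the members with a peak was 5.44 FPM in Seh1cKO day 1 cells, 5.48 in control day 1 cells and 3.63 in progenitors, against 2.86, 2.52 and 1.88 for all genes with a peak. Of 20 other genes of sterol and fatty acid metabolism, among them Acat2 and Abca1, 19 had a gene-end peak in each of the 3 libraries.

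**Figure D1:**
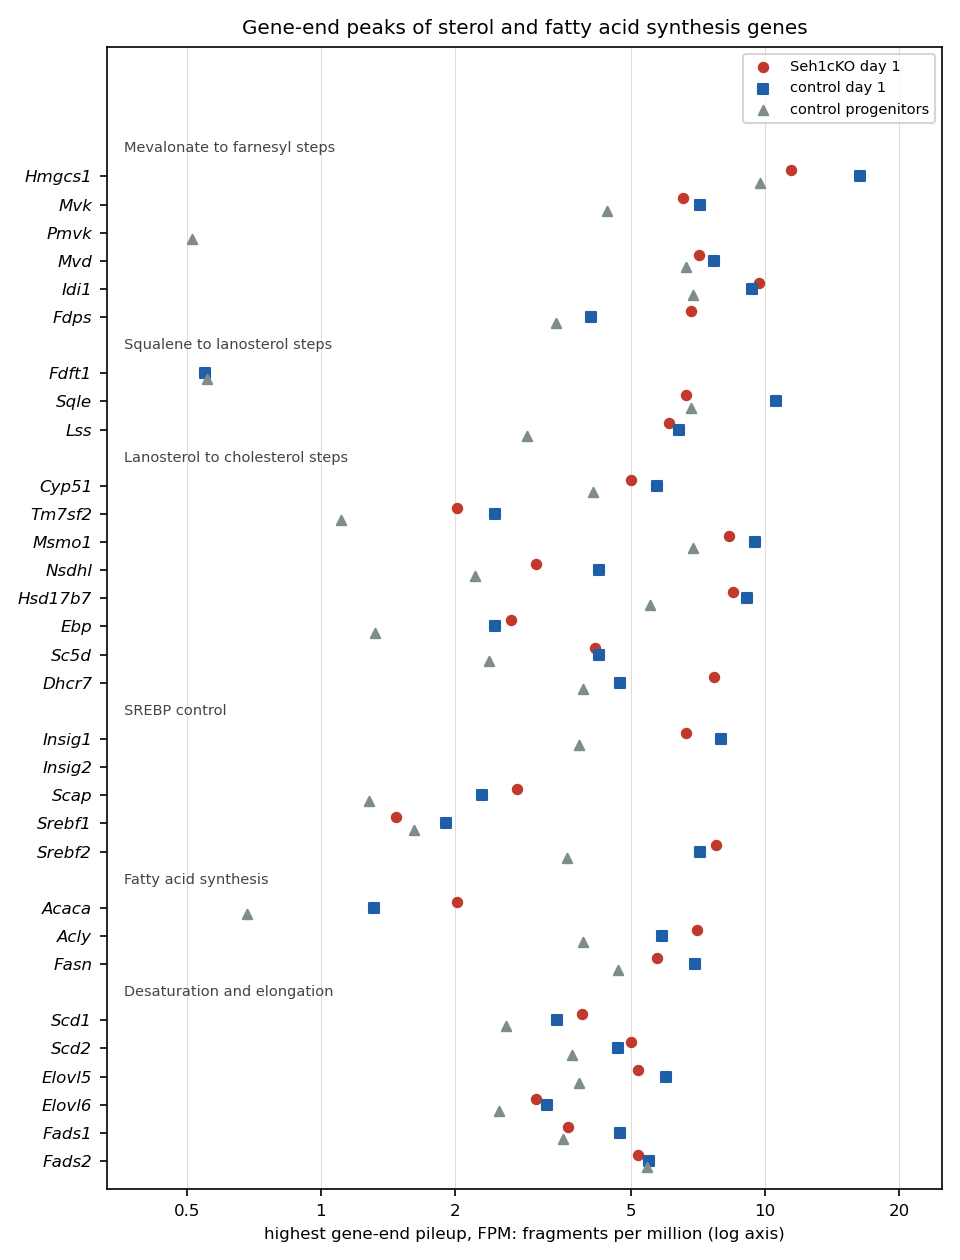
Highest gene-end pileup of each of the 31 genes in FPM (log axis), with Seh1cKO day 1 cells as circles, control day 1 cells as squares and control progenitors as triangles, grouped by step of the pathway; a missing symbol means no call. Hmgcs1 stands highest in all 3 libraries, at 11.4, 16.3 and 9.74 FPM, and progenitors have the lowest level for most genes.

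At day 1 the genes as a set had close to the same gene-end levels in Seh1cKO and control cells, and the members that departed most did so in both directions. Over the 28 genes called in both libraries the median log2 ratio of Seh1cKO day 1 over control day 1 was -0.09, with a range of -0.67 to 0.75, and over 12052 genes it was 0.00. The ratio was under 1 for 18 genes and over 1 for 10, against 5990 and 6062 of the 12052 genes. At least 1.5-fold lower in Seh1cKO day 1 cells was 1 gene, Sqle, of 28, against 8.68% of all genes. At least 1.5-fold higher were 3 genes, Fdps, Dhcr7 and Acaca, against 8.89%. The counting interval lay wholly below the median of all genes for Hmgcs1 and Sqle, as for 5.48% of all genes, and wholly above it for Fdps and Dhcr7, as for 5.35%. By steps, the median log2 ratio was -0.11 for the 5 called genes up to farnesyl diphosphate, -0.37 for the 2 called genes from squalene to lanosterol and -0.15 for the 8 genes from lanosterol to cholesterol. It was -0.07 for the 4 called genes of SREBP control, 0.26 for the 3 genes of fatty acid synthesis and -0.09 for the 6 desaturases and elongases. The medians of the smallest groups depend on the peak and measure used. With the highest peak in the gene or within 1000 bp, fatty acid synthesis had -0.28 and squalene to lanosterol -0.07, against -0.06 for all genes. By fold enrichment of the gene-end peak over the local background they had 0.02 and -0.28, against -0.10 for all genes. The 19 other pathway genes called in both had a median of -0.19, with 3 at least 1.5-fold lower and 1 at least 1.5-fold higher.

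Between stages nearly every gene had a higher level in control day 1 cells than in progenitors, as most genes of the genome did. The median log2 ratio of control day 1 over progenitors was 0.59 over 29 genes, against 0.47 over 12633 genes. The ratio was above 1 for 28 of 29, against 10900 of the 12633 genes. The exception, Fdft1, had its peaks at different places in the control libraries, as given below. At least 1.5-fold higher in control day 1 cells were 15 of 29, against 38.7% of all genes, and none of 29 was at least 1.5-fold lower, against 1.59%. Set relative to the median of all genes, 3 genes were at least 1.5-fold higher, Lss, Tm7sf2 and Insig1, against 6.91% of all genes, and none was 1.5-fold lower, against 9.29%. The interval lay wholly above the ratio of the median gene, 1.39, for Hmgcs1, Lss, Insig1 and Srebf2, as for 7.41% of all genes. It lay wholly below it for Fads2, as for 6.39%. The step medians were 0.44 up to farnesyl diphosphate, 0.64 from squalene to lanosterol and 0.77 from lanosterol to cholesterol. They were 0.92 for SREBP control, 0.59 for fatty acid synthesis and 0.37 for desaturation and elongation, and the other pathway genes had 0.59. The 2 comparisons share the control day 1 library, so a high or low value there enters both.

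**Figure D2:**
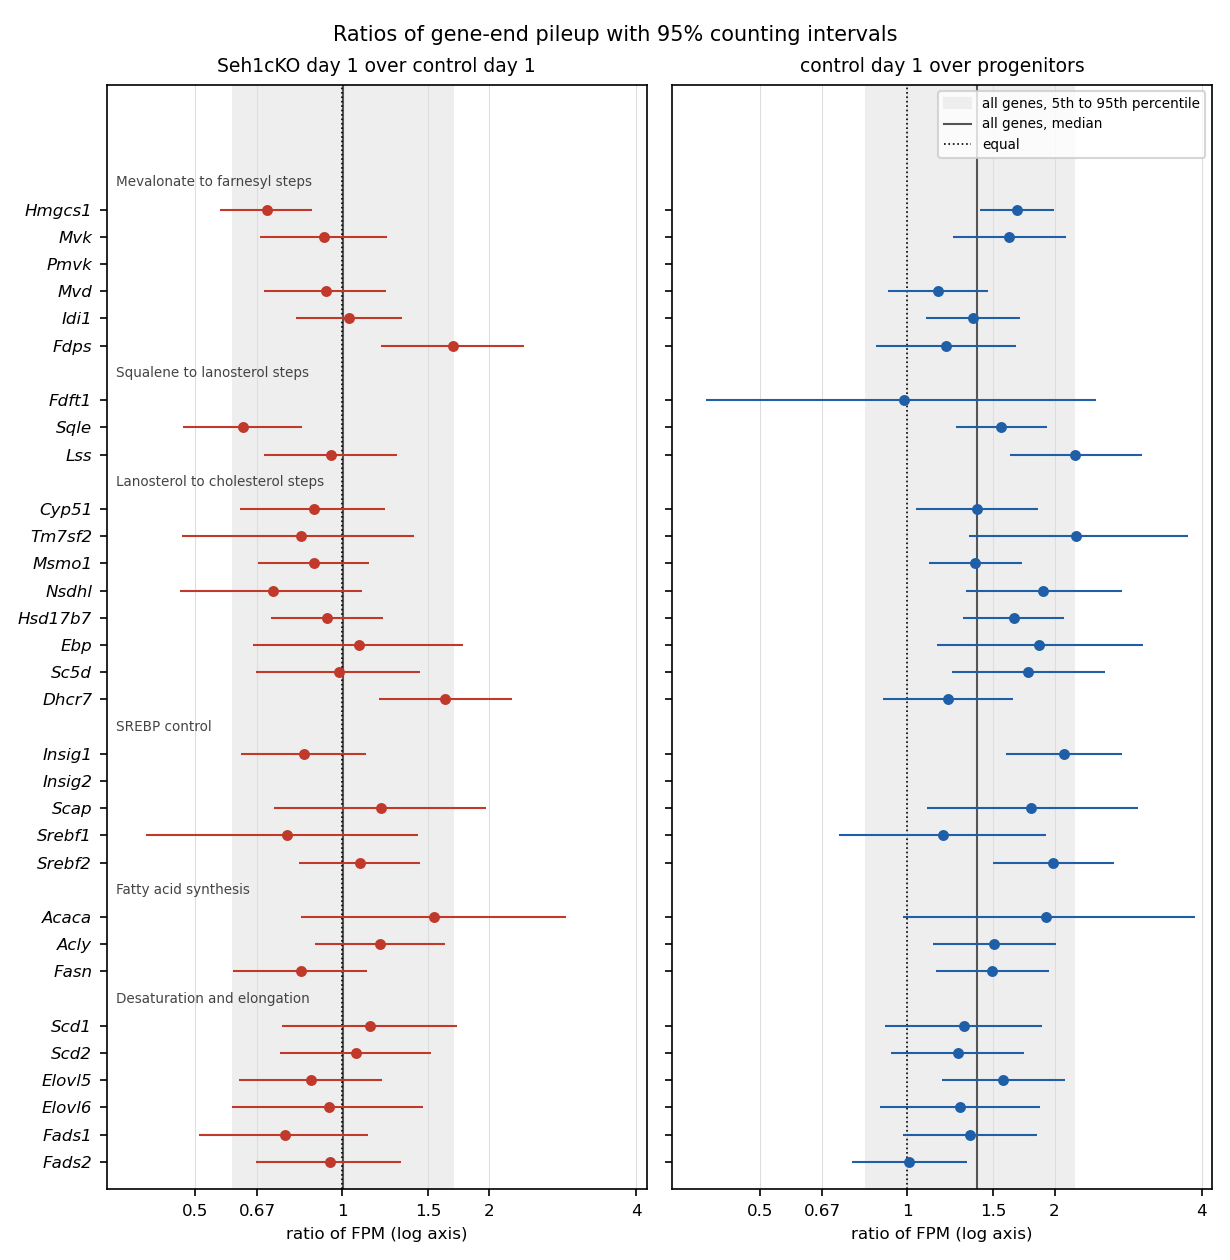
Ratio of gene-end FPM (log axis) for each gene, Seh1cKO day 1 over control day 1 on the left and control day 1 over progenitors on the right, with 95% counting intervals as bars; the grey band spans the 5th to 95th percentile of all genes and the solid line is their median. On the left Hmgcs1 and Sqle lie below the line and Fdps and Dhcr7 above it with their whole intervals. On the right 28 of 29 points exceed 1, against 10900 of 12633 over all genes.

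Among the enzymes that lead to farnesyl diphosphate, Hmgcs1, which makes HMG-CoA, had 124 fragments in Seh1cKO day 1 cells, 298 in control day 1 cells and 228 in progenitors. These are levels of 11.4, 16.3 and 9.74 FPM. The ratio of Seh1cKO day 1 over control day 1 was 0.70 (0.56 to 0.87). That of control day 1 over progenitors was 1.68 (1.41 to 2.00), so the level was highest in control day 1 cells. By fold enrichment both ratios of Hmgcs1 were nearer to 1, at 0.87 at day 1 and 1.19 between stages. Fdps, farnesyl diphosphate synthase, went the other way at day 1, with 74 fragments in Seh1cKO day 1 cells, 74 in control day 1 cells and 79 in progenitors, or 6.82, 4.05 and 3.38 FPM. Its ratio at day 1 was 1.68 (1.20 to 2.36). Its fold enrichment over the local background was 17.8 in Seh1cKO day 1 cells and 11.4 in control day 1 cells. Of the 3 higher genes, Fdps alone was at least 1.5-fold higher by fold enrichment as well. A flanking site of Fdps at chr3:89090437-89091496 was lower in Seh1cKO day 1 cells, unlike its gene end, with 23 fragments in Seh1cKO day 1 cells, 65 in control day 1 cells and 36 in progenitors and a ratio at day 1 of 0.60 (0.35 to 0.97). Idi1, which interconverts the isoprenoid building blocks, had 105, 171 and 161 fragments in Seh1cKO day 1 cells, control day 1 cells and progenitors, or 9.68, 9.36 and 6.88 FPM. Its day 1 ratio was 1.03 (0.80 to 1.33). Pmvk, phosphomevalonate kinase, had a gene-end peak in progenitors alone, of 12 fragments. A peak next to its other listed start, inside the gene at chr3:89458777-89459651, was called in all 3 libraries with 20 fragments in Seh1cKO day 1 cells, 28 in control day 1 cells and 43 in progenitors. There the ratio of control day 1 over progenitors was 0.83 (0.50 to 1.37).

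Of the enzymes that make and close squalene, Sqle, squalene epoxidase, had 72 fragments in Seh1cKO day 1 cells, 193 in control day 1 cells and 159 in progenitors, or 6.64, 10.6 and 6.79 FPM. Its ratio at day 1 was 0.63 (0.47 to 0.83), the lowest among the 28 genes, and the Seh1cKO day 1 level stood near that of progenitors. By fold enrichment its day 1 ratio was 0.75, short of 1.5-fold. Lss, lanosterol synthase, had 66 fragments in Seh1cKO day 1 cells, 117 in control day 1 cells and 68 in progenitors, or 6.09, 6.41 and 2.91 FPM. Both day 1 libraries exceeded the progenitors, with 2.21 (1.62 to 3.02) for control day 1 over progenitors and 0.95 (0.69 to 1.30) for Seh1cKO day 1 over control day 1. By fold enrichment the ratio of control day 1 over progenitors was 1.34. Fdft1, squalene synthase, had weak gene-end peaks at different places in the control libraries and none called in Seh1cKO day 1 cells. In control day 1 cells it had 10 fragments at chr14:63145869-63146078, shared with Ctsb, and in progenitors 13 at chr14:63144155-63144266. Its stage ratio of 0.99 (0.39 to 2.43), the only one under 1 among the 29 genes, therefore compares places that do not overlap. The main peak of Fdft1 lay inside the annotated gene at chr14:63177556-63178456 and had 96 fragments in Seh1cKO day 1 cells, 132 in control day 1 cells and 101 in progenitors, or 8.85, 7.23 and 4.32 FPM. The lack of a gene-end call in Seh1cKO day 1 cells therefore did not extend to the gene as a whole.

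In the steps from lanosterol to cholesterol all 8 genes had gene-end peaks in all 3 libraries. Dhcr7, the reductase that turns dehydrocholesterol into cholesterol, had 83 fragments in Seh1cKO day 1 cells, 86 in control day 1 cells and 91 in progenitors, or 7.65, 4.71 and 3.89 FPM. Its day 1 ratio was 1.62 (1.19 to 2.22). That peak also lies at an end of Nadsyn1, and the fold enrichment ratio was 1.24. A peak at another listed start of Dhcr7, chr7:143829545-143830447, held 55, 62 and 73 fragments in Seh1cKO day 1 cells, control day 1 cells and progenitors. Nsdhl, a sterol dehydrogenase, had 33 fragments in Seh1cKO day 1 cells, 77 in control day 1 cells and 52 in progenitors at a peak shared with Cetn2, with a day 1 ratio of 0.72 (0.46 to 1.10) and a stage ratio of 1.90 (1.32 to 2.75). By fold enrichment the stage ratio of Nsdhl was 1.24. Tm7sf2, a sterol reductase, had 22 fragments in Seh1cKO day 1 cells, 45 in control day 1 cells and 26 in progenitors at a peak shared with Vps51. Its ratio of control day 1 over progenitors, 2.22 (1.34 to 3.75), was the highest of the 29 genes, and by fold enrichment it was 2.07. Ebp, a sterol isomerase, had 29, 45 and 31 fragments in Seh1cKO day 1 cells, control day 1 cells and progenitors at a peak shared with Porcn, whose summit lay 642, 843 and 642 bases past the listed start of Ebp. Its stage ratio was 1.86 (1.15 to 3.04), and 1.21 by fold enrichment. Msmo1, methylsterol oxidase, had 90 fragments in Seh1cKO day 1 cells, 173 in control day 1 cells and 161 in progenitors at its gene end, with a day 1 ratio of 0.88 (0.67 to 1.14). A flanking site of Msmo1 at chr8:64738790-64739429, which lies at an end of Klhl2, was the strongest of all sites called in both controls and not in Seh1cKO day 1 cells, with 54 fragments in control day 1 cells and 15 in progenitors. Its ratio between these stages was 4.61 (2.57 to 8.80).

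The SREBP control genes had the highest stage median of the 6 groups by pileup, but by fold enrichment their median log2 ratio was 0.23, against 0.25 for the genes from lanosterol to cholesterol. Insig1, an anchor that retains SCAP, had 72 fragments in Seh1cKO day 1 cells, 145 in control day 1 cells and 89 in progenitors, or 6.64, 7.94 and 3.80 FPM. It was 2.09-fold higher in control day 1 cells than in progenitors (1.59 to 2.75) by pileup and 1.44-fold by fold enrichment. Its day 1 ratio was 0.84 (0.62 to 1.12). The summit of Insig1 lay at -238 bases from the listed start in Seh1cKO day 1 cells and -255 in control day 1 cells. In progenitors it lay at 651 bases, past the start. The stage ratio of Insig1 therefore compares summits at different places within overlapping peaks. Srebf2, which encodes the SREBP most tied to cholesterol genes, had 84 fragments in Seh1cKO day 1 cells, 130 in control day 1 cells and 84 in progenitors, or 7.75, 7.12 and 3.59 FPM. Both day 1 libraries stood above progenitors for Srebf2, with 1.98 (1.496 to 2.64) between the controls and 1.09 (0.82 to 1.44) between the genotypes. By fold enrichment the ratio between the controls was 1.21. Scap, the SREBP escort, had 30, 42 and 30 fragments in Seh1cKO day 1 cells, control day 1 cells and progenitors, and its ratios were 1.20 (0.73 to 1.97) at day 1 and 1.79 (1.10 to 2.97) between stages. By fold enrichment the ratio of Scap between stages was 1.13. Insig2, the other anchor, had no gene-end peak in any library, but a peak over 2 of its listed starts, chr1:121327414-121328350, held 71 fragments in Seh1cKO day 1 cells, 130 in control day 1 cells and 103 in progenitors. These are 6.55, 7.12 and 4.40 FPM, with a stage ratio of 1.62 (1.24 to 2.12). Mvk, on another chromosome, happened to have the same pileup as Insig2 in each library.

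Srebf1, which encodes the SREBP most tied to fatty acid genes, was low throughout and differed between its own sites. Its gene-end peak, shared with Rai1, lay more than 10000 bases from its listed starts and had 16 fragments in Seh1cKO day 1 cells, 35 in control day 1 cells and 38 in progenitors. The site at chr11:60209204-60209702, inside the gene, had 11 fragments in Seh1cKO day 1 cells, 42 in control day 1 cells and 44 in progenitors, with a day 1 ratio of 0.44 (0.20 to 0.87). The sites over listed starts at chr11:60210248-60210713 and chr11:60220344-60220881 had 19 and 20 fragments in Seh1cKO day 1 cells, 24 and 26 in control day 1 cells and 47 and 25 in progenitors. Their day 1 ratios of 1.33 (0.69 to 2.54) and 1.30 (0.69 to 2.41) span 1. Another 2 sites inside the gene were called in control day 1 cells alone, with 23 and 19 fragments.

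Of the fatty acid synthesis genes, Acaca, which encodes acetyl-CoA carboxylase, gave opposite readings at different places. Its gene-end peak, shared with Tada2a, was weak, with 22 fragments in Seh1cKO day 1 cells, 24 in control day 1 cells and 16 in progenitors and a day 1 ratio of 1.54 (0.83 to 2.87). Its stage ratio was 1.92 (0.98 to 3.87), and both intervals span 1. The strongest peak inside the gene, chr11:84179188-84180466, had 42 fragments in Seh1cKO day 1 cells, 120 in control day 1 cells and 93 in progenitors, or 3.87, 6.57 and 3.97 FPM. There the day 1 ratio was 0.59 (0.40 to 0.84), so Acaca counts as higher or lower in Seh1cKO day 1 cells depending on which peak stands for it. A further site of Acaca, chr11:84323914-84324790, had 35, 68 and 71 fragments in Seh1cKO day 1 cells, control day 1 cells and progenitors, with a day 1 ratio of 0.87 (0.56 to 1.32). When the highest peak anywhere in a gene or within 1000 bp of it was taken, all 31 genes had one in all 3 libraries, against 65.1% of all genes.

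Fads1, a desaturase of polyunsaturated fatty acids, had 39 fragments in Seh1cKO day 1 cells, 86 in control day 1 cells and 82 in progenitors at its gene end, with a day 1 ratio of 0.76 (0.51 to 1.13). Elovl5, an elongase of polyunsaturated chains, had 56 fragments in Seh1cKO day 1 cells, 109 in control day 1 cells and 89 in progenitors, and a day 1 ratio of 0.87 (0.62 to 1.20). For both genes the interval spans 1. Scd2, a stearoyl-CoA desaturase abundant in brain, had 54 fragments in Seh1cKO day 1 cells, 85 in control day 1 cells and 86 in progenitors, and a day 1 ratio of 1.07 (0.75 to 1.52). Elovl6, which elongates saturated chains, had 33 fragments in Seh1cKO day 1 cells, 59 in control day 1 cells and 59 in progenitors at its gene end, with a day 1 ratio of 0.94 (0.60 to 1.47). A stronger peak inside Elovl6, chr3:129536059-129536753, had 83 fragments in Seh1cKO day 1 cells, 154 in control day 1 cells and 139 in progenitors. The remaining 9 genes, Mvk, Mvd, Cyp51, Hsd17b7, Sc5d, Acly, Fasn, Scd1 and Fads2, had day 1 ratios between 0.82 and 1.20 and stage ratios between 1.01 and 1.76. Their gene-end levels were 3.87 to 8.48 FPM in Seh1cKO day 1 cells, 3.40 to 9.09 in control day 1 cells and 2.39 to 6.62 in progenitors.

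In a wider view each locus was taken as the gene and 10000 bp on either side. These loci held 77 peaks in Seh1cKO day 1 cells, 181 in control day 1 cells and 159 in progenitors. Nearly every Seh1cKO day 1 peak was also in the control lists. Of them, 74 of 77 (96.1%, 89.0 to 99.2) overlapped a control day 1 peak and 72 of 77 (93.5%, 85.5 to 97.9) a progenitor peak, against 84.9% and 82.1% at all loci. The share expected from peak strength, found in the whole list for peaks in the same deciles of −log10 q, was 89.0% for control day 1 and 87.5% for progenitors. In the other direction 74 of 181 control day 1 peaks (40.9%, 33.6 to 48.4) were present in Seh1cKO day 1 cells, against 35.7% at all loci and an expected 39.8%. In progenitors 87 of 181 (48.1%, 40.6 to 55.6) were present, against 45.0% at all loci and an expected 48.0%. The expected shares for control day 1 peaks, and that of Seh1cKO day 1 peaks in progenitors, lie inside the intervals of the member loci. That of Seh1cKO day 1 peaks in control day 1 cells lies just below the lower bound.

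**Figure D3:**
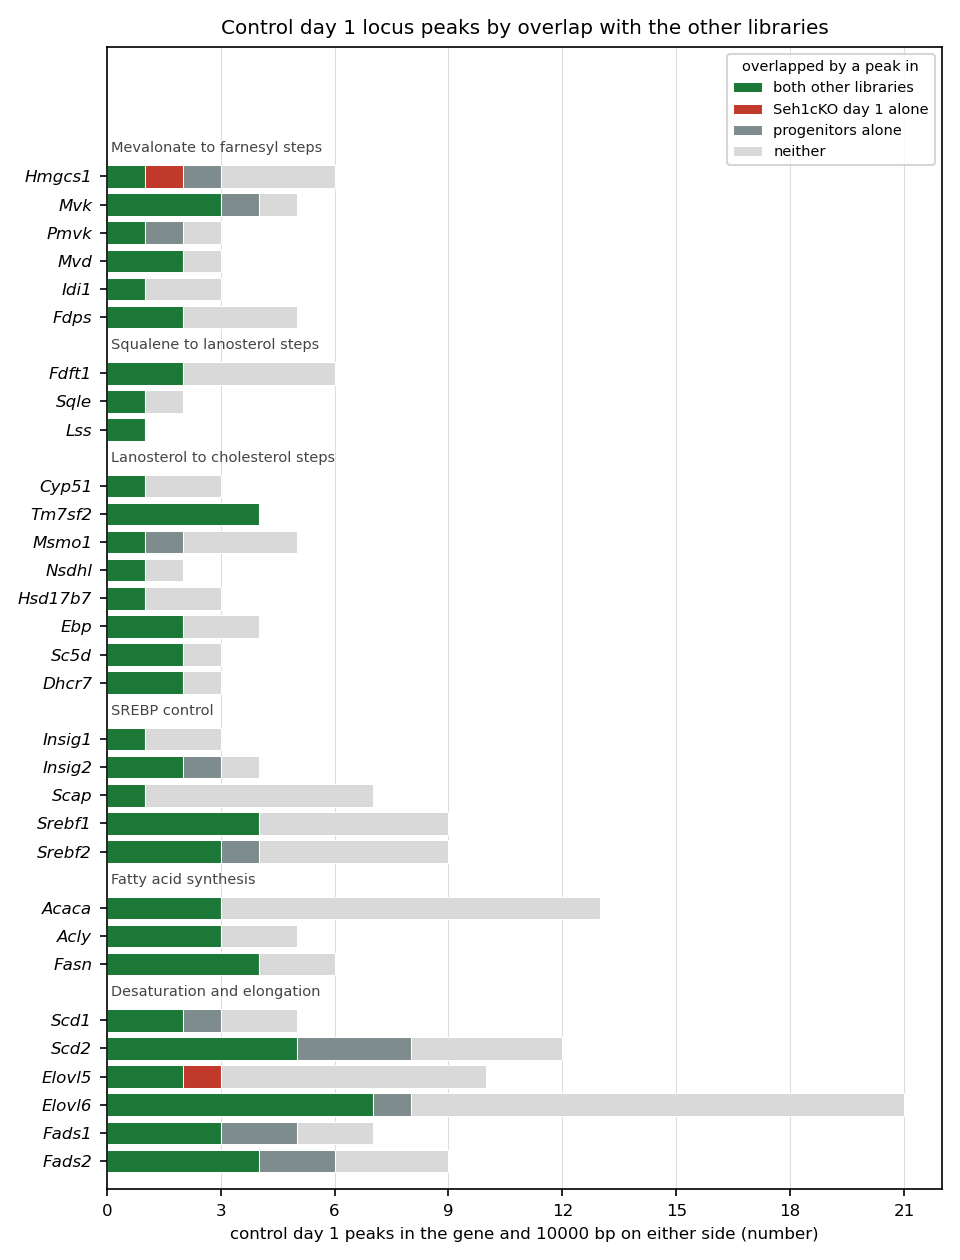
Number of control day 1 peaks in each gene and 10000 bp on either side, split by whether a peak of both other libraries, of Seh1cKO day 1 alone, of progenitors alone or of neither overlaps them. Elovl6 has 21, Acaca 13 and Scd2 12, and every gene has at least 1 peak that both other libraries share.

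Elovl6 had the most peaks at its locus, 7 in Seh1cKO day 1 cells, 21 in control day 1 cells and 12 in progenitors. Acaca had 4 in Seh1cKO day 1 cells, 13 in control day 1 cells and 9 in progenitors. Scd2 had 4 in Seh1cKO day 1 cells, 12 in control day 1 cells and 10 in progenitors. Of these genes, Elovl5 had the fewest in progenitors, with 4 in Seh1cKO day 1 cells, 10 in control day 1 cells and 5 in progenitors. Lss had 1 in Seh1cKO day 1 cells, 1 in control day 1 cells and 5 in progenitors, and Tm7sf2 had 4 in each library, all of them shared.

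Merged over the 3 lists, the loci held 249 sites. Of these 70 (28.1%) were called in all 3 libraries, against 21.7% at all loci. Another 92 (36.9%) were called in control day 1 cells alone, 69 (27.7%) in progenitors alone and 13 (5.22%) in both controls. At all loci these shares were 35.2%, 29.6% and 7.53%. There were 2 (0.80%) in both day 1 libraries, 1 (0.40%) in Seh1cKO day 1 cells and progenitors, and 2 (0.80%) in Seh1cKO day 1 cells alone. The shares of these at all loci were 1.87%, 1.18% and 2.89%. The sites of control day 1 cells alone were weak, with a median pileup of 11 fragments and a highest of 34, against a median of 56 for sites of all 3 libraries. At the depth of the Seh1cKO day 1 library 40 of these 92 sites would fall under 6 fragments, the lowest pileup called there. Such scaling leaves out local background and sampling error, so sites at 6 or more could also go uncalled. The 13 sites of both controls had a median of 18 fragments in control day 1 cells and none would fall under 6. The strongest were the Msmo1 flank at an end of Klhl2, given above, and a site inside Scd2, chr19:44294682-44294999, with 45 fragments in control day 1 cells and 37 in progenitors. The 2 sites of Seh1cKO day 1 cells alone were weak as well, 9 fragments inside Elovl5 and 7 in the flank of Srebf1.

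Some flanks hold ends of neighbouring genes, so for a comparison with all loci the 249 sites were split by the ends of any protein-coding gene. Away from all such ends lay 180 sites, and 31 of them were called in all 3 libraries, against 14.5% over all loci. At these 31 sites the median log2 ratio of Seh1cKO day 1 over control day 1 was -0.22, against -0.29 over all loci. At least 1.5-fold lower in Seh1cKO day 1 cells were 11 of 31, against 33.1% of such sites over all loci, and 0 of 31 were at least 1.5-fold higher, against 7.39%. At an end of any gene 39 of 69 sites were called in all 3 libraries, against 55.9% over all loci. Of these 39, 3 were at least 1.5-fold lower, against 9.74% of gene-end sites over all loci, and 4 at least 1.5-fold higher, against 9.05%. The difference between sites at and away from gene ends was not tested. The flank of Elovl6 at chr3:129639892-129641014 had the highest control day 1 pileup of the 11 lower sites away from gene ends, with 37 fragments in Seh1cKO day 1 cells, 139 in control day 1 cells and 103 in progenitors, or 3.41, 7.61 and 4.40 FPM. Its day 1 ratio was 0.45 (0.30 to 0.65). The flank of Tm7sf2 at chr19:6057526-6058312, which lies at ends of Fau and Mrpl49, had 48 fragments in Seh1cKO day 1 cells, 42 in control day 1 cells and 31 in progenitors, with a ratio of 1.92 (1.25 to 2.98). Another flank of the same gene, chr19:6061073-6061571, lies at an end of Znhit2 and had 19, 51 and 31 fragments in Seh1cKO day 1 cells, control day 1 cells and progenitors, with a ratio of 0.63 (0.35 to 1.08).

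**Figure D4:**
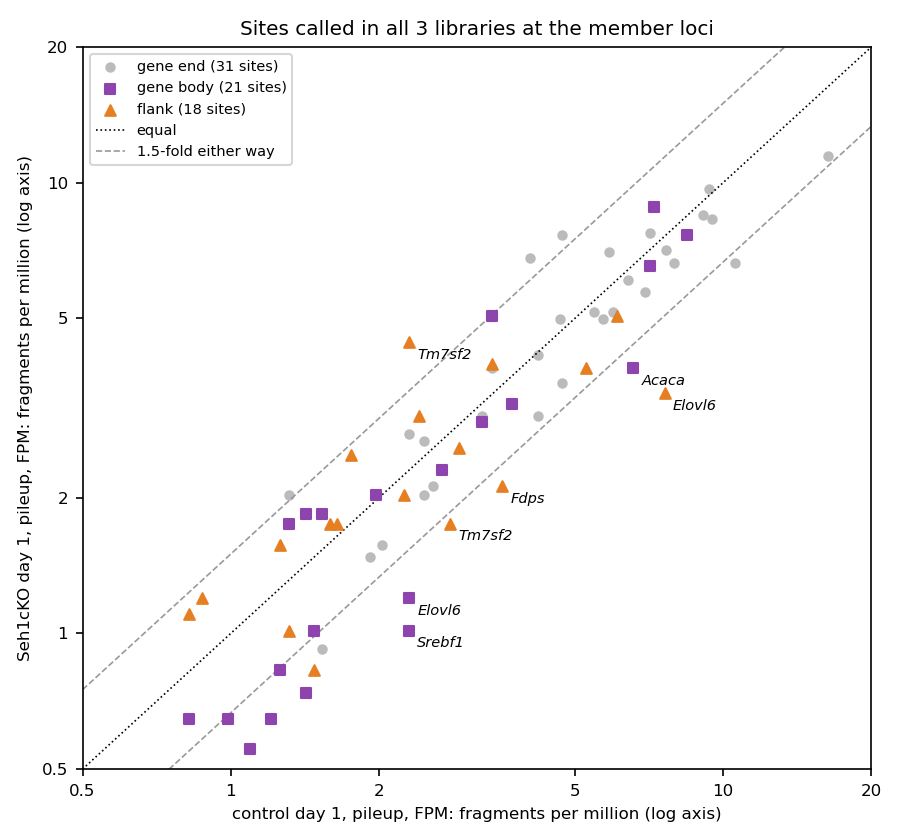
Pileup in FPM at the 70 sites called in all 3 libraries, control day 1 on the horizontal and Seh1cKO day 1 on the vertical axis (both log), for 31 gene-end, 21 gene-body and 18 flanking sites, placed by the ends of the member gene alone. The dotted line marks equal levels and the dashed lines 1.5-fold either way; the strongest sites below the lower line are those of Acaca and Elovl6, apart from the gene end of Sqle.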

How the data were processed

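Each of the 3 libraries had 1 peak table. The genome build was mm10 and the tools MACS2, SAMtools and Bowtie2, per the submitters' processing notes. Per the file headers MACS 2.1.2_dev called peaks in each library from paired-end fragments, without a control and keeping every duplicate, at a q cutoff of 0.05 with peaks of at least 100 bp and a local background window of 10000 bp. Shifting of reads to the transposase cut is not stated in the labels or headers. For each peak the deposited tables hold the summit pileup signal in fragments, the ratio of that pileup to the local background (fold enrichment), and the −log10 of the p-value and q-value, whose column names were damaged. The p-value recomputed from pileup and fold came within 0.01 on the −log10 scale for at least 99.9% of peaks in the deposited tables, and −log10 q exceeded −log10 p for no peak. The sample title ending in DO was read as day 0.

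Positions are 1-based mm10, with genes and promoters from RefSeq (GRCm38.p6). The genes, their groups by step, the marker lists and the other pathway genes were chosen with earlier results of these data known. Named genes are those with a missing gene-end call, the 8 with the largest ratio in each comparison, the 4 with the highest pileup, the 4 with the most locus peaks in control day 1 cells, and the 5 SREBP control genes; those named for a count or a site were chosen after their values were seen. Ratios of pileup per 1000000 fragments have exact conditional binomial intervals, and shares exact Clopper-Pearson intervals, at 95%. A peak was present elsewhere at 1 bp of overlap, and a ratio counted as higher or lower at 1.5-fold. There was no test, since each group has 1 library. Overlaps and intervals were tested on simulated data. The work used Python 3.11.15, pandas 2.3.3, numpy 2.4.6, scipy 1.17.1 and matplotlib 3.10.9.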

Additional observations from a re-analysis of the deposited data

How the results depend on the processing

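For the 11 results recomputed under other settings, 71 of the values stayed within the spread allowed for them, 17 moved, and none reversed. Scaling to the median of all genes gave a control day 1 over progenitor median log2 ratio of 0.11 and 2 genes at least 1.5-fold higher, since Insig1 lies at the edge of the rule. Fold enrichment in place of pileup gave 0.15, against 0.13 for all genes, and 2 genes. For Seh1cKO day 1 over control day 1 it gave a median of -0.09, against -0.10 for all genes, and left 1 gene higher and 0 lower. Shares of all genes by fold enrichment, by the 2-fold rule, with other windows or at stricter cutoffs are not given here. With a 2-fold rule 3 genes were higher in control day 1 cells than in progenitors, and 0 were higher and 0 lower in Seh1cKO than in control day 1 cells. Windows of 2000 bp gave 2 genes lower in Seh1cKO day 1 cells, Sqle and Elovl6, and the highest peak in the gene or within 1000 bp, an alternative chosen after seeing the data, gave 2, Sqle and Acaca. When control day 1 locus peaks had to reach a −log10 q of 5, 57.4% were present in Seh1cKO day 1 cells and 71.3% in progenitors; at 10 or more these were 66.2% and 79.4%, and with lists cut to equal length 77.5% and 77.5%. No paired analysis was possible because each group has 1 library, and for the same reason no replicate could be left out. At the depth of the Seh1cKO day 1 library 40 of the 92 sites called in control day 1 cells alone would fall under its lowest called pileup, and 52 would not. The scaling leaves out local background and sampling error, and the part of depth in the missing calls was not tested.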
